A study of Saccharomyces cerevisiae BY4741 with 5 samples.

Results

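SRL1, SVS1, TOS6, PRY2, ECM33 and PST1 encode secreted proteins of the budding yeast surface, and were taken here as a set of named genes by their locus names in a table of 5090 transcripts. Of the 6 genes, 5 were matched to a row of the table, and TOS6 (YNL300W) was not analysed here. The counts come from CRAC (cross-linking and analysis of cDNA), in which ultraviolet light joins a tagged protein to the RNA it touches in living cells, the protein is purified, and the attached RNA fragments are sequenced. The tagged protein was Ssd1, a fungal RNA-binding protein related to RNase II nucleases.

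All strains were in the BY4741 background. In the Ssd1–HTP strains the genomic SSD1 gene carried a C-terminal His–TEV–Protein A tag, followed by the Kluyveromyces lactis SSD1 3′ untranslated region and a URA3 cassette. Independent clones 3 and 4 were each grown exponentially in synthetic medium without tryptophan at 30°C, and a second culture of each clone was moved to 42°C for 16 min. Untagged BY4741 at 30°C gave a single control library, and no untagged library at 42°C was analysed here. The cell wall of yeast is a mesh of glucan and chitin covered by mannoproteins, and many genes for surface proteins are transcribed in G1, when the bud emerges, under the factor SBF. Ssd1 is known to hold back translation of mRNAs for cell wall proteins, and the kinase Cbk1 phosphorylates it at the growing bud. The cultures were not synchronised, so the timing of these transcripts in the cell cycle was not measured.

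The 4 Ssd1–HTP libraries held 111824 to 413502 counts and the control held 3921, with counts on 560 of its transcripts. Levels are given in CPM, which scales every library to the same sum. A transcript without counts in the control may have had as many as 3, which is 765 CPM there, and levels under that limit could not be separated from background. Intervals and limits given here cover counting error only. Of the marker genes of BY4741, LEU2 had no counts in any of the 5 libraries and MET17 had 1 count in a single library at 42°C. HIS3, which this strain carries as a partial deletion, was not at 0 in the Ssd1–HTP libraries, where clones 3 and 4 gave 9 and 5 counts at 30°C and 1 and 20 after heat shock, while the control gave none. URA3 had no counts either, but the Ssd1–HTP strains carry a URA3 cassette, and its absence is a check of the control alone, at that library's depth. CPM are relative to the rest of a library, so a lower value is a smaller part of the counts, and fewer mRNA molecules cannot be told apart from less binding per molecule, since mRNA levels were not analysed here.

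The transcripts were counted as intervals that include untranslated regions, on the sacCer3 build named in the submitters' processing notes. The 4 intervals of SVS1, PRY2, ECM33 and PST1 have mapped ends. SRL1 is among the 878 transcripts (17.2% of the table) to which default ends were given, 25 nt before and 125 nt after the reading frame, and any reads upstream of that start are missing from its count. The mapped 5′ untranslated regions were 23 nt long for SVS1, 40 nt for PRY2, 61 nt for PST1 and 176 nt for ECM33, against a median of 47 nt over the 4212 transcripts with mapped ends. None of the 5 intervals overlapped another interval of the table.

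Together the 5 transcripts held 3.06% ± 0.701 of each library at 30°C (mean ± SD, n = 2), with 2.57% in clone 3 and 3.56% in clone 4. After heat shock they held 0.769% ± 0.307 (mean ± SD, n = 2), with 0.986% in clone 3 and 0.552% in clone 4. In the control they had 10 counts, or 0.255%. Most of this was SRL1, with 84.9% and 83.8% of the counts of the set in clones 3 and 4 at 30°C. At 42°C the part of SRL1 was 80.3% in clone 3 and 53.9% in clone 4. By density (TPM, counts per transcript length scaled to a fixed sum), the order at 30°C was SRL1, PRY2, ECM33, SVS1 and PST1. SRL1 stood far above the rest in both clones. PRY2 (1609 and 1988 TPM) and ECM33 (922 and 1669 TPM) overlapped between clones. SVS1, with 431 and 473 TPM, and PST1, with 244 and 404 TPM, did not overlap, but the gap between them was smaller than the spread of PST1. For comparison, the median over the 5090 transcripts was 40.3 TPM. At 42°C the order was SRL1, ECM33, PST1, PRY2 and SVS1. There PST1 (806 and 228 TPM) overlapped ECM33 (418 and 862 TPM), PRY2 (144 and 340 TPM) and SVS1 (86.2 and 319 TPM), while both values of ECM33 lay above those of PRY2 and SVS1.

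**Figure D1:**
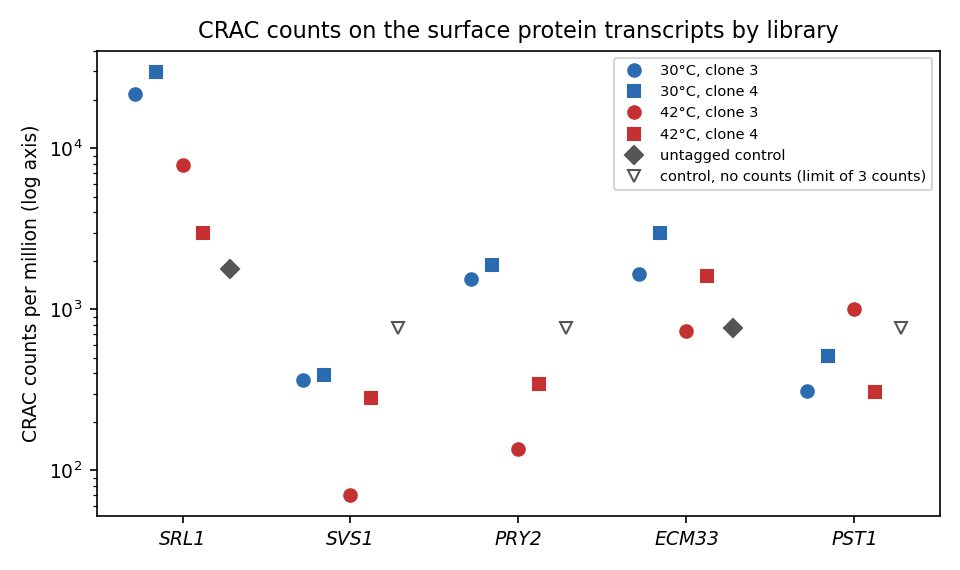
CRAC counts as CPM (log axis) on the 5 transcripts, with 1 point per library, circles for clone 3, squares for clone 4 and diamonds for the untagged control. Open triangles mark the limit of 3 counts, 765 CPM, where the control had no counts. Both libraries at 42°C lie below both at 30°C for each transcript except PST1, by little for ECM33, and the control limit lies above every value of SVS1. After normalization this order of the temperatures held for 3 of the 5, not for ECM33, and for 24.3% of the 2837 transcripts tested.

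SRL1 (YOR247W, chromosome XV, 797651 to 798433, plus strand) encodes a mannoprotein of the cell wall, and its gene was found as a suppressor of the lethality of rad53 mutants. Clones 3 and 4 gave 3860 and 3336 counts on it at 30°C, then 1343 and 1229 after heat shock, and the control gave 7. These are 21813 and 29833 CPM at 30°C and 7921 and 2972 CPM at 42°C, so that the temperatures did not overlap. By mean density SRL1 stood second of the 5090 transcripts at 30°C, with 39853 TPM, and at rank 10 at 42°C, with 8391 TPM. Its counts fell after heat shock, with a log2 fold change of -2.20 ± 0.43 (SE). The adjusted p was 0.0217 in the quasi-likelihood test of edgeR, after Benjamini-Hochberg adjustment over 2837 transcripts. The clones differed in the size of the fall, since the normalized count at 42°C was 0.353 of that at 30°C in clone 3 and 0.116 in clone 4. Without 30°C replicate 4 the fall of SRL1 was not called (log2 fold change -1.97, adjusted p = 0.114 from edgeR, 2.0e-07 to 0.114 over its alternatives).

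Against the control, which had 0.179% of its counts on SRL1 (exact Clopper-Pearson 95% interval 0.0718 to 0.367%), both clones at 30°C stood higher, at 2.18% (interval 2.11 to 2.25%) and 2.98% (2.88 to 3.08%). At 42°C clone 3 had 0.792% (0.750 to 0.835%), above the interval of the control. Clone 4 at 42°C had 0.297% (0.281 to 0.314%), which lies inside that interval. SRL1 was called higher at 30°C than in the control (adjusted p = 0.0202 from edgeR) and not at 42°C (adjusted p = 0.429 from edgeR), where its mean share was 3.05 times that of the control (Poisson 95% interval of the control's count, 1.48 to 7.59). Without 42°C replicate 4 SRL1 was called at 42°C too (log2 fold change 2.15, adjusted p = 9.7e-06 from edgeR, 9.7e-06 to 0.856 over its alternatives). The control was grown at 30°C, so the tag and the temperature differ together in the values for 42°C.

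SVS1 (YPL163C, chromosome XVI, 241715 to 242723, minus strand) is the paralog of SRL1 from the whole genome duplication and encodes a cell wall and vacuolar protein that is needed for resistance to vanadate. Clones 3 and 4 gave 64 and 44 counts on SVS1 at 30°C and 12 and 116 after heat shock, while the control gave none. In CPM these are 362 and 393 at 30°C, and 70.8 and 281 at 42°C. Both values at 42°C lay below both at 30°C, but the clones at 42°C were further from each other than clone 4 was from 30°C. The difference was not called (log2 fold change -0.92 ± 0.77 SE, adjusted p = 0.619 from edgeR). It moved from -0.20 without 42°C replicate 3 to -2.41 without 42°C replicate 4. All 4 values were below the control's limit of 765 CPM, and SVS1 was not called against it at either temperature (adjusted p = 0.637 at 30°C and 0.721 at 42°C from edgeR). By mean density it stood at rank 307 at 30°C and at rank 580 at 42°C.

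The 2 paralogs differed widely in density. SRL1 had 77.7 times the density of SVS1 in clone 3 and 97.7 times in clone 4 at 30°C, with the default ends of its interval as counted. At 42°C the ratio was 144 in clone 3 and 13.7 in clone 4. The mean log2 ratio was 6.45 at 30°C and 5.47 at 42°C, and the 2 values at 42°C enclosed those at 30°C (exact two-sided permutation test, p = 1, where 2 libraries against 2 cannot go below 0.333).

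**Figure D2:**
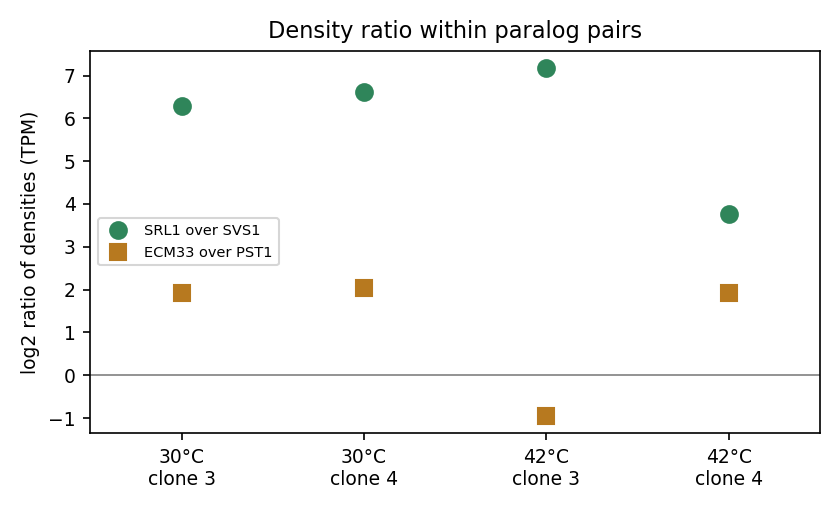
Log2 ratio of CRAC densities (TPM) within the pairs SRL1 over SVS1 (circles) and ECM33 over PST1 (squares), with 1 point per Ssd1–HTP library and a line at equal density. SRL1 exceeds SVS1 in all 4 libraries, and PST1 exceeds ECM33 only in clone 3 at 42°C, where the log2 ratio is -0.95.

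PRY2 (YKR013W, chromosome XI, 463919 to 465075, plus strand) encodes a secreted protein of the CAP family that binds sterols and fatty acids and helps to export them. On its transcript clones 3 and 4 gave 274 and 212 counts at 30°C and 23 and 142 after heat shock, and the control gave none. In CPM these are 1548 and 1896 at 30°C, and 136 and 343 at 42°C, with no overlap between the temperatures. PRY2 fell as well, with a log2 fold change of -2.68 ± 0.59 (SE, adjusted p = 0.0324 from edgeR), and its gap to SRL1 is smaller than this error. The normalized count at 42°C was 0.0853 of that at 30°C in clone 3 and 0.210 in clone 4. Without 30°C replicate 4 the fall of PRY2 was not called (log2 fold change -2.53, adjusted p = 0.103 from edgeR, 4.6e-05 to 0.103 over its alternatives). By mean density it stood at rank 61 at 30°C and at rank 494 at 42°C.

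With the control set to 3 counts, the mean share of PRY2 at 30°C (0.172%) was at least 2.25-fold higher than in the control, for counting error alone. That limit, 0.0765%, lies below the upper end of the exact Clopper-Pearson 95% interval of the control for no counts, 0.0940%, and the shares of both clones at 30°C, 0.155% and 0.190%, lay above both. PRY2 was not called against the control at 30°C (adjusted p = 0.150 from edgeR, 0.0162 to 0.236 over its alternatives). It was called in 5 of the 7 alternatives, which were TMM, both other count minimums, DESeq2 and leaving out 30°C replicate 3 (adjusted p = 0.0326 from edgeR). At 42°C both shares, 0.0136% and 0.0343%, were under the limit of 0.0765% that the control's depth allows.

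PRY1 (YJL079C), the paralog of PRY2, and PRY3 (YJL078C), another CAP protein, found in the cell wall, had lower normalized counts at 42°C in both clones, but neither was called. PRY1 went from 139 and 127 counts to 72 and 119 (log2 fold change -1.36 ± 0.48 SE, adjusted p = 0.153 from edgeR). PRY3 went from 179 and 95 counts to 46 and 107 (log2 fold change -1.72 ± 0.48 SE, adjusted p = 0.0739 from edgeR). PRY3 also had 5 counts in the control, and its mean share at 30°C was 0.730 times that of the control (Poisson 95% interval 0.313 to 2.25), whereas the control had no counts on PRY1 or PRY2. By density PRY2 was the highest of the 3 at 30°C, with 1798 TPM against 930 TPM for PRY1 and 366 TPM for PRY3.

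ECM33 (YBR078W, chromosome II, 392947 to 395097, plus strand) encodes a GPI-anchored protein that is needed for normal wall structure and is thought to act in apical bud growth. Its gene has an intron, which is part of the interval and lowers its density. Clones 3 and 4 gave 292 and 331 counts on ECM33 at 30°C and 124 and 669 after heat shock, and the control gave 3. In CPM these are 1650 and 2960 at 30°C, and 731 and 1618 at 42°C, so that clone 4 at 42°C lay just under clone 3 at 30°C. Within clones 3 and 4 the normalized count at 42°C was 0.431 and 0.634 of that at 30°C, and the difference was not called (log2 fold change -0.83 ± 0.53 SE, adjusted p = 0.475 from edgeR). It moved to -0.27 without 42°C replicate 3, to -0.36 without 30°C replicate 4 and to -1.65 without 42°C replicate 4, and was called in none of these. After normalization the groups overlapped, with 1629 CPM in clone 3 at 30°C and 1789 CPM in clone 4 at 42°C. By mean density ECM33 stood at rank 89 at 30°C and at rank 185 at 42°C.

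The 3 counts of ECM33 in the control are 0.0765% of its total (exact Clopper-Pearson 95% interval 0.0158 to 0.223%). Of the Ssd1–HTP libraries, only clone 4 at 30°C exceeded that interval, with 0.296% against 0.165%, 0.0731% and 0.162% in the others. The mean share at 30°C was 3.01 times that of the control (Poisson 95% interval 1.03 to 14.6), and ECM33 was not called (adjusted p = 0.637 from edgeR). DESeq2, run as an alternative, called it at both temperatures (adjusted p = 0.0162 at 30°C, with 0.0162 to 0.714 over its alternatives, and 0.0386 at 42°C, with 0.0386 to 0.990).

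PST1 (YDR055W, chromosome IV, 563466 to 564994, plus strand), the paralog of ECM33, encodes a GPI protein known to be secreted by regenerating protoplasts and to be induced by the cell wall integrity pathway. Clones 3 and 4 gave 55 and 57 counts on PST1 at 30°C and 170 and 126 after heat shock, while the control gave none. In CPM these are 311 and 510 at 30°C, and 1003 and 305 at 42°C. Of the 5 transcripts, it was the one with a positive fitted value, at a log2 fold change of 0.71 ± 0.63 (SE, adjusted p = 0.644 from edgeR), and it was not called. The clones went opposite ways, with normalized counts at 42°C that were 3.14 times those at 30°C in clone 3 and 0.693 times in clone 4. Without 42°C replicate 3 the log2 fold change was -0.19. The library of clone 3 at 42°C was also the one in which PST1, at 0.100%, exceeded the control's limit of 0.0765%.

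In the ECM33 and PST1 pair, ECM33 had the higher density in 3 of 4 libraries. The ratio was 3.77 in clone 3 and 4.13 in clone 4 at 30°C, and 3.77 in clone 4 at 42°C. In clone 3 at 42°C it was 0.518, with 418 TPM for ECM33 and 806 TPM for PST1. The mean log2 ratio was 1.98 at 30°C and 0.48 at 42°C (exact two-sided permutation test, p = 0.667, with 0.333 as the smallest that this design allows). Where paralogs share sequence, as ECM33 with PST1 or SRL1 with SVS1 may, the counting could have divided reads between them, and these ratios are uncertain for that reason. Their relatives SPS2 and SPS22, which act in sporulation, had at most 1 and 6 counts in any library and were below the count minimum.

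**Figure D3:**
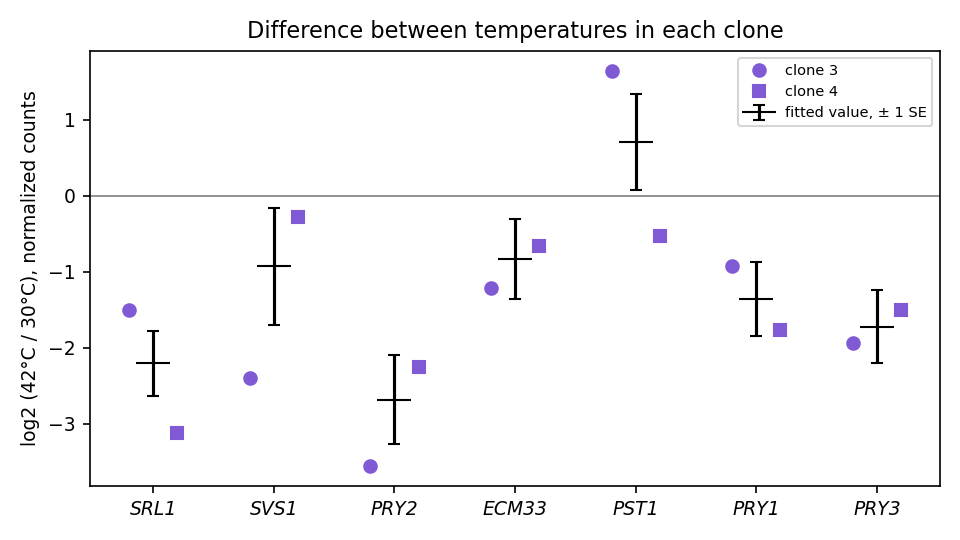
Log2 ratio of normalized counts, 42°C over 30°C, in clone 3 (circles) and clone 4 (squares) for the 5 transcripts and for PRY1 and PRY3, with the value fitted by edgeR and its standard error (bars, ± 1 SE). The ratios lie below 0 in both clones for each transcript except PST1, at 1.65 in clone 3 and -0.53 in clone 4. Over all transcripts tested, 46.8% had a fitted value below 0, and the part with both clones below 0 was not computed.

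The clones disagreed at 42°C in a way that split the set. SRL1 and PST1 had larger shares in clone 3, and SVS1, PRY2 and ECM33 had larger shares in clone 4. For each of the 5 the exact Clopper-Pearson 95% intervals of the clones at 42°C were apart, so that the gap exceeded counting error. PST1 had 0.100% (0.0858 to 0.117%) in clone 3 against 0.0305% (0.0254 to 0.0363%) in clone 4. PRY2 had 0.0136% (0.00860 to 0.0204%) against 0.0343% (0.0289 to 0.0405%), and ECM33 had 0.0731% (0.0608 to 0.0872%) against 0.162% (0.150 to 0.175%). At 30°C all 5 had the larger share in clone 4. Clone 4 at 42°C was also the deepest library, and the part of depth in these gaps was not tested.

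Between the temperatures, 2 of the 5 transcripts (SRL1 and PRY2) were called lower and none higher, where 3.45% of the 2837 transcripts tested were called lower and 3.81% higher. The median log2 fold change was -0.92 over the 5 and 0.13 over all transcripts tested. For 3 of the 5 (SRL1, SVS1 and PRY2) both normalized counts at 42°C lay below both at 30°C, which was so for 24.3% of all transcripts tested. Against the control, 1 of the 5 (SRL1) was called higher at 30°C, where 0.887% of 2256 transcripts were called. At 42°C none of the 5 was called by edgeR, where 1.15% of 3046 transcripts were. None of the 5 had an unadjusted p under 0.05 there either. DESeq2 called 3 of the 5 (SRL1, ECM33 and PST1), where it called 196 of the 3046 transcripts higher. The comparisons with the control share its single library, whose spread was taken to be that of the Ssd1–HTP libraries.

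**Figure D4:**
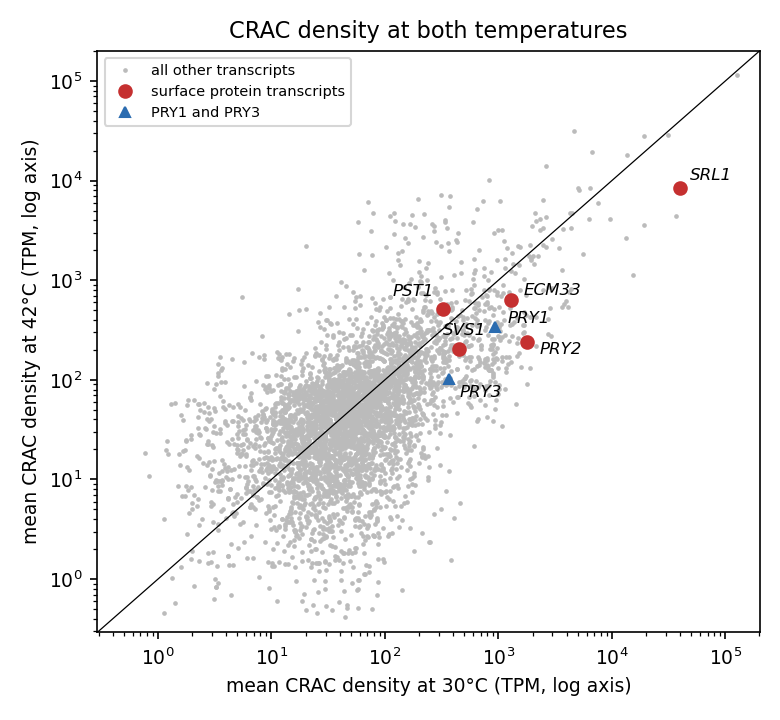
Mean CRAC density (TPM, log axes) at 30°C and 42°C for the 4196 transcripts above 0 at both temperatures, with the 5 surface protein transcripts as large circles, PRY1 and PRY3 as triangles and a line of equal density. SRL1 lies far out, at 39853 TPM at 30°C and 8391 TPM at 42°C, and of the 5 only PST1 lies above the line.

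Other transcripts of the G1 programme were set beside these from a list of 25 (cyclins, further SBF targets, wall and bud genes, and DNA synthesis genes), of which 18 passed the count minimum. The median log2 fold change of the 18 was -2.25, against 0.13 over all transcripts tested. Of the 18, 5 were called lower and none higher, where 3.45% and 3.81% of all transcripts tested were. All 18 had a negative fitted value, against 46.8% of all transcripts tested, although that of CLN1, another G1 cyclin, was -0.01. With the replicate block 17 of 18 were negative, and without a count minimum 21 of 24 were. Over all transcripts these settings gave 1273 of 2837 and 2277 of 4947. Without 30°C replicate 4 the median over 19 tested of the list was -2.11, against 0.14 over all transcripts tested. Without 42°C replicate 4 it was -2.81 over 18, against -0.03. Fewer of the list were called lower in both of these fits, which leave 1 sample in a group. TOS2, a bud neck protein, had 58 and 21 counts at 30°C and 1 and 6 at 42°C (log2 fold change -4.37 ± 1.06 SE, adjusted p = 0.0455 from edgeR). CLN2, the G1 cyclin, and RNR1, the large subunit of ribonucleotide reductase, had log2 fold changes of -4.15 and -3.61. RNR1 also had 15 counts in the much smaller control library, against 53 and 87 at 30°C. As a share of the library it was lower at 30°C than in the control. That log2 fold change was -2.84 ± 0.80 (SE), and was not called (adjusted p = 0.0926 from edgeR). TOS1, a wall protein and the most counted of this list, had 993 and 790 counts at 30°C and 194 and 536 at 42°C (log2 fold change -2.27 ± 0.36 SE, adjusted p = 0.0108 from edgeR), close to SRL1. The control had 5 counts on TOS1. Against the control its log2 fold change was 2.31 ± 0.60 (SE) at 30°C and -0.06 ± 0.59 (SE) at 42°C, neither called by edgeR. EXG1, an exoglucanase, had a log2 fold change of -2.22. GIC2, an effector of Cdc42 at the bud site, was not called, at -0.37. Against the control none of these G1 transcripts was called higher by edgeR, of 21 tested at 30°C and 13 at 42°C. Over all transcripts tested, 0.887% and 1.15% were. The lack of a call depended on the setting. TMM called 3 of 21 higher at 30°C and 2 of 13 at 42°C, against 77 of 2256 and 200 of 3046 over all transcripts. DESeq2 called 3 and 1, against 87 and 196. With a minimum mean count of 50, 3 of 6 were called at 30°C, against 47 of 404. RNR1 was called lower than in the control at 42°C (adjusted p = 0.00809 from edgeR), where 3.15% of the transcripts tested were called lower.

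The second list held 20 transcripts of the cell wall integrity response and its effectors, to which PST1 is known to belong, and 18 of them passed the count minimum. Their median log2 fold change was 0.54, with 6 of the 18 below 0. GAS1, a glucan remodelling enzyme of the plasma membrane, was the single transcript called, at a log2 fold change of -2.73 ± 0.59 (SE, adjusted p = 0.0317 from edgeR), with 167 and 101 counts at 30°C and 14 and 69 at 42°C. It was not called without 30°C replicate 4 or without 42°C replicate 3. With the main settings of edgeR, none was called higher. SED1, a GPI wall protein, had a log2 fold change of 0.86 and the glucanase BGL2 had 1.32, and neither was called there. Other settings fitted to all 4 libraries did give higher calls. These were 1 of 20 without a count minimum, 1 of 11 at a minimum mean count of 50 and 1 of 18 with DESeq2. Over all transcripts they gave 174 of 4947, 149 of 660 and 151 of 2837. The same settings called 1, 3 and 2 of the list lower. Both other normalizations and the replicate block called none higher. Higher calls also came without 30°C replicate 3 and without 42°C replicate 3, each with 1 sample left in a group. Against the control, 2 of 18 were called higher at 30°C (CIS3 and CCW14, both wall proteins) and 2 of 17 at 42°C (BGL2 and CCW14). Over all transcripts tested, 0.887% and 1.15% were. These counts moved with the setting. TMM called 5 of 18 and 5 of 17, against 77 of 2256 and 200 of 3046 over all transcripts. DESeq2 called 6 and 5, against 87 and 196. A model with only the 30°C libraries and the control called 1 of 18, against 18 of 2256. Set beside both medians, SRL1 and PRY2 lay near that of the G1 list. SVS1, at -0.92 ± 0.77 (SE), and ECM33, at -0.83 ± 0.53 (SE), lay between the medians. PST1, at 0.71 ± 0.63 (SE), lay within 1 standard error of the median of this list and of the 0.13 over all transcripts. The lists overlapped, since the G1 values ran from -4.37 to -0.01 and GAS1 was at -2.73. Both lists were chosen with earlier results of these data known, so these positions are a description only.

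**Figure D5:**
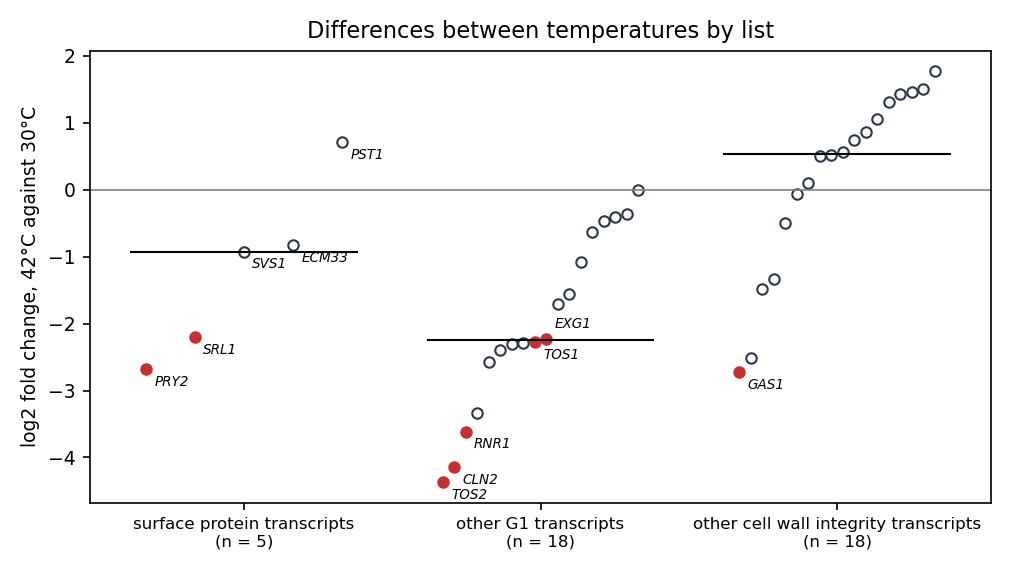
Log2 fold change, 42°C against 30°C, for the 5 surface protein transcripts, 18 other G1 transcripts and 18 other cell wall integrity transcripts, sorted within each list, with filled points for adjusted p under 0.05 from edgeR and a horizontal line at each median. The medians are -0.92, -2.25 and 0.54.

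For each transcript, the 2 transcripts with the most similar shape over the 4 Ssd1–HTP libraries were found by Euclidean distance of centred log2 CPM. The closest to SRL1 were SMM1 (distance 0.17), a tRNA dihydrouridine synthase, and HO (distance 0.21), the mating type endonuclease, which is itself a G1 gene. Both had few counts, from 3 to 18 for SMM1 and from 7 to 26 for HO. The closest to PRY2 were the ribosomal protein transcripts RPS1B (distance 0.16) and RPS4B (distance 0.26), with 144 and 108 counts at 30°C and 10 and 64 at 42°C for RPS1B. The closest to SVS1 was RPG1, a subunit of initiation factor eIF3, to ECM33 it was ERP1, a p24 protein of vesicle transport, and to PST1 it was BUL1, a ubiquitin ligase adaptor. With 4 libraries, such a distance describes these libraries alone.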

How the data were processed

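The authors trimmed adapters with flexbar, demultiplexed the reads, merged PCR duplicates that shared an insert and random barcode bases, aligned what remained with Novoalign and tallied it on 1 transcript per gene with multiBamCov. The deposited values are raw counts per transcript, and the use of strand in the tally is not stated. The ends of 876 of the 878 default transcripts lay exactly 25 nt before and 125 nt after the gene in RefSeq assembly R64, which also gave the symbols. Samples were grouped by their titles.

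CPM and TPM (with interval length) were computed from the counts. The temperatures were compared by the quasi-likelihood test in edgeR 4.0.16 (R 4.3.3) with TMM, no covariates, a threshold of 0.05 after Benjamini-Hochberg adjustment and a minimum mean count of 10. For the control, 1 model held the 5 libraries as 3 groups, and library sizes were total counts. Standard errors are the absolute log2 fold change over the square root of F. Alternatives were DESeq2 1.42.0, other normalizations and count minimums, a model without the other temperature, the replicate block and leaving out each replicate, where the minimum was taken over the libraries kept. Where 1 sample was left in a group, it was assumed to vary like the others. P-values set a difference against a spread estimated from these few samples, with information shared across transcripts. The tests were also run on simulated counts, with a single spread for all transcripts and control proportions taken from the Ssd1–HTP libraries. That run does not show how the tests behave on the real control. Distances used log2 CPM with a prior count of 2. Python 3.11.15 and its packages scipy 1.17.1 and matplotlib 3.10.9 served for intervals, permutation tests and plots.

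The transcripts named are the set itself, its relatives, those nearest by shape, and up to 5 called per list and direction. CLN1, GIC2, SED1, BGL2, CIS3 and CCW14 were added after their values were seen. The set and the lists were chosen with earlier results of these data known. Replicate numbers pair the samples, since each number in the titles was taken as 1 independent clone sampled at both temperatures. The difference between clones at 30°C and that at 42°C had Pearson's r = -0.02 over 2837 transcripts, or -0.04 over 660 at a minimum mean count of 50. A search of sequences for motifs was not run.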

Additional observations from a re-analysis of the deposited data

How the results depend on the processing

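Between the temperatures, the calls of SRL1 and PRY2 and the lack of a call for SVS1, ECM33 and PST1 held under both other normalizations, both count minimums, DESeq2 and the replicate block. The paired fit with the block called 150 transcripts higher and 144 lower, against 108 and 98, and changed no call of the set. No count minimum gave 174 of 4947 higher, and DESeq2 gave 181 of 2837 lower. With a replicate left out, 75 to 193 transcripts were higher and 33 to 121 lower, and 0 to 2 of the set were called, with log2 fold changes of -2.88 to -1.71 for SRL1, -3.66 to -2.09 for PRY2 and -0.19 to 1.30 for PST1.

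At 30°C against the control, 20 of 2256 transcripts were higher, and 77 under TMM and 87 with DESeq2. A minimum mean of 50 gave 47 of 404, and no minimum gave 32 of 4948. Of the set, 1 was called, and 2 under TMM and both minimums, and 3 with DESeq2. With a replicate left out, 16 to 28 were higher, 1 to 2 of the set among them. At 42°C, 35 of 3046 were higher, and 200 under TMM and 196 with DESeq2, with 1 of the set under TMM and 3 with DESeq2. No minimum gave 72 of 4948 there. With a replicate left out, 61 to 68 were higher, 0 to 1 of the set among them, and the log2 fold change of ECM33 was -0.065 to 1.08. TMM also moved the split, from 55 lower transcripts to 1 at 30°C and from 96 to 3 at 42°C. The cause of these differences was not tested. Over transcripts with mapped ends alone, which leaves out SRL1, the share of the set was 0.534% at 30°C and 0.248% at 42°C. Ranked by CPM without length, SRL1 was at 6 and SVS1 at 365 at 30°C, against 2 and 307 by density. The control's 3921 counts limit all comparisons with it.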
